A study of Mus musculus with 16 samples.

Results

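The genes described here are Cd8a and Cd8b1, which encode the α and β chains of the CD8 coreceptor, and Cd3e and Cd3d, which encode the ε and δ chains of the CD3 complex. They were chosen by name, as 4 of the 9428 genes in the lymph node gene table, and all 4 passed the filter on low counts. The table held 3266 T cells sorted as CD8+CD44+ from the tumor-draining lymph node of 16-week-old C57BL/6 mice with melanoma-associated vitiligo, a loss of skin pigment that follows an immune response to melanoma, 45 days after tumor surgery. All cells came from 1 library read on 4 lanes, and the labels do not say how many mice it holds. Matched skin was also sampled, but its RNA was not analysed here. The cells were divided in 4 ways that answer whether the balance of the CD8 chains differs between kinds of lymph node cell. The first compares 384 cells with a UMI (1 counted molecule) of Itgae with 2882 cells without. The second compares 231 cells with a UMI of Izumo1r or Nrn1 with 3035 without, and the third 80 cells with a UMI of Trgv2 with 3186 without. The fourth compares 2964 cells with a deposited T cell receptor contig, an assembled receptor sequence, with 302 without. The divisions overlap, since 44 cells had both Itgae and Trgv2, 66 had Itgae with Izumo1r or Nrn1, and 7 had Trgv2 with Izumo1r or Nrn1.

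CD8 binds the class I major histocompatibility molecule that presents peptide to the T cell receptor, and its α chain carries Lck, the kinase that starts signalling, to the receptor. Most CD8 T cells of lymphoid organs carry an αβ heterodimer, the more efficient coreceptor, while αα homodimers are known from intestinal intraepithelial lymphocytes and from some activated cells. CD3 ε and δ pair with each other, as ε also does with γ, and these dimers carry the receptor to the cell surface and signal for it. Itgae encodes the αE integrin chain (CD103), which binds E-cadherin. Izumo1r, also called folate receptor 4, and Nrn1, neuritin, are known from anergic and regulatory T cells, and Trgv2 is a variable segment of the T cell receptor γ chain.

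Because a single library was read, nothing was tested between animals, and the differences given lack any replicate error. All intervals are exact 95% intervals that cover counting error only, and overlap of intervals shows nothing about mice. Cells held 461 to 12576 UMIs, with a median of 4423. Since the cells were sorted on CD8, the presence of CD8 transcripts checks the sort and is not a finding. All 8 listed CD8 T cell markers were measured, and 16 of 3266 cells (0.490%) had no UMI of any of the 4 genes. Of the barcodes in the gene table, 315 carried 2 or more productive TRB contigs, and 12 also occurred in the skin contig table. Leaving out either set moved no CD8 ratio beyond its interval.

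On the mouse build mm10, Cd8b1 (ENSMUSG00000053044.8) lies on chromosome 6 from 71322788 to 71337494 and Cd8a (ENSMUSG00000053977.13) downstream on the same strand from 71373427 to 71379173, so the pair share 1 locus with 35933 bases between them. Cd3d (ENSMUSG00000032094.8, 44981786 to 44987339) and Cd3e (ENSMUSG00000032093.7, 44998740 to 45009627) lie on opposite strands of chromosome 9, next to Cd3g (ENSMUSG00000002033.14, 44969572 to 44980431). The sequences below, from RefSeq on build GRCm38.p6, run 5′ to 3′ from 250 to 21 bases before the gene start. For Cd3e the window does not lie at these distances from the position printed above, which comes from another annotation. They are shown because the levels of these genes are what is compared below. Capitals mark the E-box CANNTG, which basic helix-loop-helix factors bind, and the ETS motif AGGAAG or its reverse complement. The RUNX motif TGTGGT was also searched. Both strands were read, and no match overlapped another in these windows.
Cd8a (chr6:71373177-71373406, plus strand): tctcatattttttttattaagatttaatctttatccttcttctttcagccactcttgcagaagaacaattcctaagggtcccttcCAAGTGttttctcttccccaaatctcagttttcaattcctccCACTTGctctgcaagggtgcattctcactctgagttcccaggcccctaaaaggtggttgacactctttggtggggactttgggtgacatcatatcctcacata
Cd3e (chr9:45009632-45009861, minus strand): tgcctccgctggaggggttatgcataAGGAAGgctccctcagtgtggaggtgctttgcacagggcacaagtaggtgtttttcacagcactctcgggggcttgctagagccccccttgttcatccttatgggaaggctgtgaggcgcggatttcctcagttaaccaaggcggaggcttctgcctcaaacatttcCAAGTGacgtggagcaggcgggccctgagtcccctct
Cd3d (chr9:44981536-44981765, plus strand): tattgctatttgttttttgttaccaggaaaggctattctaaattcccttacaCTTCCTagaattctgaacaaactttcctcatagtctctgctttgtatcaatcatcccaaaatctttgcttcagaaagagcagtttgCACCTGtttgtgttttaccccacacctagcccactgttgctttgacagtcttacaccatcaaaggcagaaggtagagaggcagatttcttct
Cd8a had 2 E-boxes and no ETS match, while Cd3e and Cd3d had 1 of each. None of the 3 windows held the RUNX letters. Of 32851 promoter windows of this length, 63.5% held an E-box, 27.2% the ETS letters and 13.2% the RUNX letters, so these matches are common and are given as description only.

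Over all cells, both CD8 chains and both CD3 chains were seen in most cells. Cd8a had 8136 UMIs, or 559 CPM (summed UMIs per 1000000 UMIs), with a median of 2 per cell, quartiles of 1 and 3 and a maximum of 19. Cd8b1 had 20328 UMIs (1396 CPM), with a median of 6 per cell, quartiles of 3 and 9 and a maximum of 28. Cd3e had 13288 UMIs (913 CPM) and Cd3d 14609 (1004 CPM), each with a median of 4 per cell and quartiles of 2 and 6. The genes are not equally well captured, so the ratio of Cd8a to Cd8b1 UMIs is not the ratio of chains on a cell, and it is read here only between groups of cells.

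Both CD8 chains were seen in 2657 cells (81.4%), Cd8b1 alone in 498 (15.2%), Cd8a alone in 55 (1.68%) and neither in 56 (1.71%). Cells with Cd8a alone were shallow, with a median of 2464 UMIs against 4599 in cells with both. When each of the 3090 cells with enough UMIs was thinned to 1500, Cd8a alone was seen in 7.51% of them and Cd8b1 alone in 38.3%, so the sizes of these classes move with the number of UMIs read. Of the 17 cells with 3 or more Cd8a UMIs and no Cd8b1, 7 had Itgae, 5 had Izumo1r or Nrn1, 1 had Trgv2 and 17 had a contig. Over all 3266 cells these counts were 384, 231, 80 and 2964. No cell group that should lack these chains was found in the table, so the share given by free RNA could not be read. Across thinned cells the genes were close to independent, with a Pearson r of 0.11 for Cd8a with Cd8b1, 0.10 for Cd8a with Cd3e and 0.05 for Cd3e with Cd3d, and such weak values in sparse counts are no finding.

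Cells with Itgae had more Cd8a than cells without, while Cd8b1 differed less, so the balance of the CD8 chains was shifted towards α. Cd8a was at 942 CPM (895 to 991) in cells with Itgae and 512 CPM (500 to 524) in cells without. Cd8b1 was at 1653 CPM (1590 to 1717) and 1365 CPM (1345 to 1385). The Cd8a to Cd8b1 ratio was therefore 0.570 (0.535 to 0.607) in cells with Itgae, from 1505 and 2641 UMIs, and 0.375 (0.364 to 0.386) in cells without, from 6631 and 17687 UMIs. On the log2 scale the ratios differed by 0.60 (0.50 to 0.70). Per cell, cells with Itgae had a median of 3 Cd8a UMIs (quartiles 2 and 6) and cells without a median of 2 (1 and 3), at the same Cd8b1 median of 6, although the first were shallower, with a median of 3682.5 UMIs in total against 4471.

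**Figure D1:**
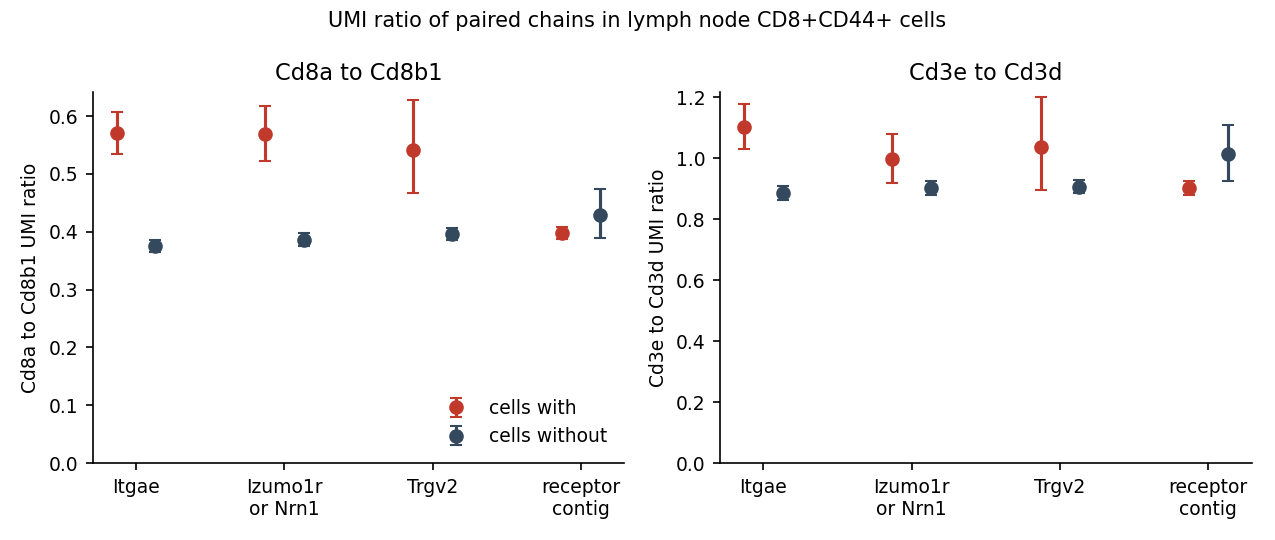
Ratio of Cd8a to Cd8b1 UMIs (left) and of Cd3e to Cd3d UMIs (right), summed over cells with (red) and without (dark) each feature on the x axis; bars are exact 95% intervals of counting error. The Cd8a to Cd8b1 ratio is 0.570, 0.568 and 0.542 in cells with Itgae, Izumo1r or Nrn1, and Trgv2, above the cells without, and the intervals overlap for the receptor contig.

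The CD3 chains shifted less than Cd8a in cells with Itgae. Cd3e was at 1122 CPM in cells with Itgae and 887 CPM in cells without (log2 ratio 0.34, 0.27 to 0.41), and Cd3d at 1019 and 1002 CPM (0.02, -0.05 to 0.10). The Cd3e to Cd3d ratio was 1.10 (1.03 to 1.18) in cells with Itgae and 0.886 (0.863 to 0.908) in cells without. Of the 4 genes only Cd8a was more than 1.5-fold higher, at a log2 ratio of 0.88 (0.80 to 0.96). That threshold was passed upward by 15.5% of 9037 genes with at least 50 UMIs and downward by 3.25%. Among the 283 genes with at least 5000 UMIs, where counting error is small, 2.47% passed it upward and 0.353% downward. The other 6 such genes that passed upward, named after their values were seen, were Vim, S100a6, S100a10, Ifi27l2a, Malat1 and AW112010. Across all tested genes the median log2 ratio was 0.21. With median-of-ratios scaling, which takes off a shift of 0.22, Cd8a was at 0.66, Cd8b1 at 0.06, Cd3e at 0.12 and Cd3d at -0.19, so the sign of Cd3d turns, and the higher Cd8b1 level rests on scaling by total UMIs. The ratio of the chains does not depend on scaling.

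**Figure D2:**
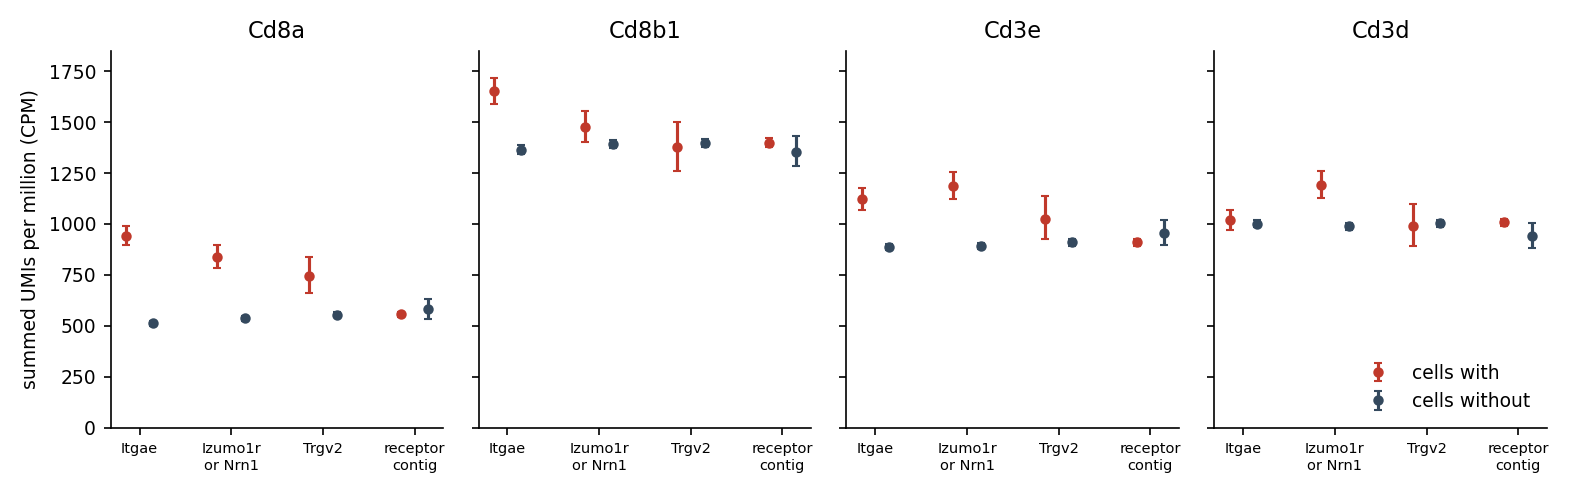
Level of each gene (y axis, CPM) in cells with (red) and without (dark) each feature on the x axis, with exact 95% counting intervals. Cd8a is at 942, 839 and 745 CPM in cells with Itgae, Izumo1r or Nrn1, and Trgv2, against 512, 537 and 554 CPM in cells without.

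The same cells were also divided by their count of Itgae. The Cd8a to Cd8b1 ratio was 0.375 in cells with 0 Itgae UMIs, 0.548 (0.502 to 0.597) in 224 cells with 1, 0.546 (0.480 to 0.622) in 91 cells with 2, and 0.666 (0.578 to 0.766) in 69 cells with 3 or more. Cd8a was at 512, 875, 957 and 1128 CPM over these steps and Cd8b1 at 1365, 1598, 1752 and 1694 CPM. The ratio intervals at 1, 2 and 3 or more UMIs overlapped each other. Such overlap does not show that the steps are equal, and a difference among them was not tested. Thinned to 1500 UMIs, with the division made again on the thinned counts, Cd8a had no UMI in 22.6% of 190 cells with Itgae and 47.6% of 2900 cells without, and 4 UMIs in 14.7% and 1.59%. Cd8a alone, without Cd8b1, was then seen in 10% (6.13 to 15.2) of cells with Itgae and 7.34% (6.42 to 8.36) of cells without, against 3.13% and 1.49% before thinning, while Cd8b1 alone was seen in 20.5% and 39.5% (37.7 to 41.3). Cells with Itgae thus mostly had both chains with more Cd8a. For Cd8a alone the thinned intervals overlapped, which does not decide whether such cells were in excess with Itgae. Before thinning their share was higher with Itgae (3.13% against 1.49%), in cells that were also shallower. Itgae was seen in 7 of the 17 cells with 3 or more Cd8a UMIs and no Cd8b1, against 384 of all 3266 cells. A difference in these shares was not tested.

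**Figure D3:**
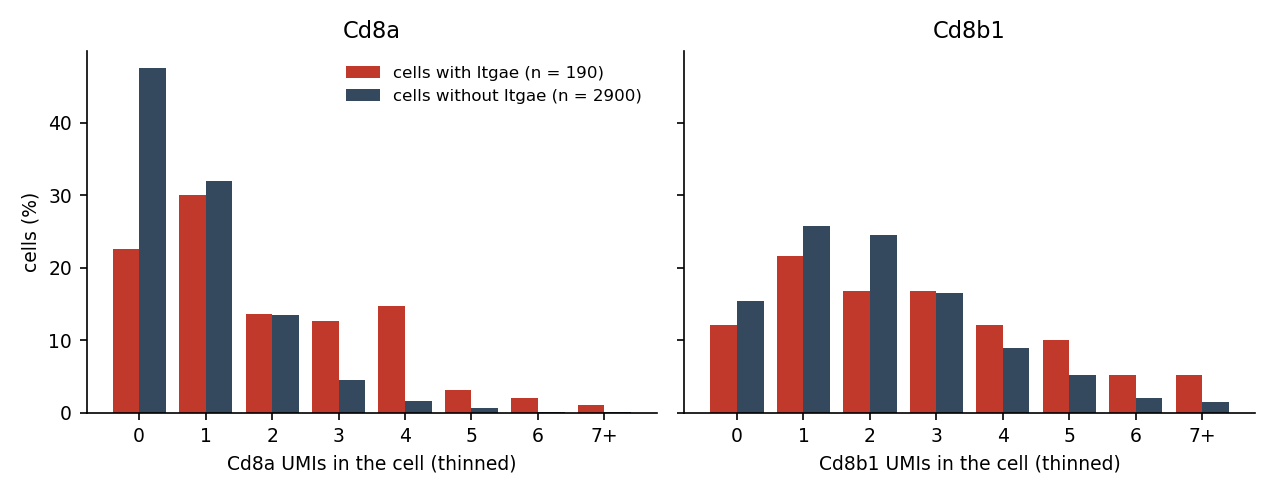
Share of cells (y axis, percent) by number of Cd8a UMIs (left) and Cd8b1 UMIs (right) per cell after thinning every cell to 1500 UMIs, for 190 cells with Itgae (red) and 2900 without (dark); 7+ holds 7 or more. Cells with Itgae hold fewer cells at 0 Cd8a UMIs (22.6% against 47.6%).

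Cells with Izumo1r or Nrn1 showed a shift of like size. Cd8a was at 839 CPM (784 to 896) in cells with either gene and 537 CPM (525 to 550) in cells without, and Cd8b1 at 1476 CPM (1403 to 1552) and 1390 CPM (1371 to 1410). The Cd8a to Cd8b1 ratio was 0.568 (0.522 to 0.618) in cells with either gene and 0.387 (0.376 to 0.397) in cells without, a log2 difference of 0.56 (0.43 to 0.68). The ratio was 0.722 (0.570 to 0.912) in 21 cells with both genes, 0.540 (0.484 to 0.602) in 150 cells with Izumo1r alone and 0.567 (0.480 to 0.668) in 60 cells with Nrn1 alone, so it was above the cells without in all 3. With at least 2 UMIs of the pair required, the log2 difference was 0.88. It was 0.34 without cells that had a UMI of Cd74, the class II invariant chain of B cells and myeloid cells, a setting chosen after seeing the data. In thinned cells Cd8a alone was seen in 13.1% (7.69 to 20.4) of cells with Izumo1r or Nrn1 and 7.28% (6.37 to 8.27) of cells without, intervals that overlap.

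Here both CD3 chains were also higher. Cd3e was at 1188 CPM in cells with Izumo1r or Nrn1 and 892 CPM in cells without (log2 ratio 0.41, 0.33 to 0.50), and Cd3d at 1192 and 989 CPM (0.27, 0.18 to 0.35). Their ratio was 0.997 (0.920 to 1.08) and 0.902 (0.880 to 0.924). Cd8a, at a log2 ratio of 0.64 (0.54 to 0.74), was the only 1 of the 4 past 1.5-fold when levels were scaled by total UMIs, a threshold that 14.2% of 9036 genes passed upward and 6.2% downward. This call depends on the setting. Cd3e also passed it in thinned cells (0.68) and with at least 2 UMIs of the pair (0.60). Among genes with at least 5000 UMIs, 1.06% passed upward and 1.06% downward, and Cd8a was 1 of the 3 that passed upward, with Btg1 and Ifi27l2a. The median of all tested genes was 0.15. With median-of-ratios scaling, a shift of 0.17, Cd8b1 turned to -0.079 while Cd8a was at 0.48, Cd3e at 0.25 and Cd3d at 0.10, so none of the 4 was past 1.5-fold on that scale.

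Cells with both Itgae and Izumo1r or Nrn1 had a ratio above that of cells with either feature alone. In the 64 cells with both features and no Trgv2 it was 0.716 (0.620 to 0.827), with Cd8a at 1095 CPM. It was 0.541 (0.50 to 0.58) in 276 cells with Itgae only, 0.502 (0.451 to 0.558) in 160 cells with Izumo1r or Nrn1 only and 0.365 (0.355 to 0.376) in 2686 cells with none of the 3 features. Itgae only and Izumo1r or Nrn1 only did not differ beyond their intervals.

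Cells with Trgv2 also had a higher ratio, and the levels behind it differed between those with and without Itgae. Over all 80 cells with Trgv2 the Cd8a to Cd8b1 ratio was 0.542 (0.467 to 0.628), against 0.397 (0.386 to 0.407) in cells without, a log2 difference of 0.45 (0.23 to 0.67). Cd8a was at 745 and 554 CPM (log2 ratio 0.43, 0.25 to 0.60), Cd8b1 at 1375 and 1397 CPM, Cd3e at 1027 and 910 CPM and Cd3d at 989 and 1004 CPM. None of the 4 passed 1.5-fold, which 18.2% of 9037 genes passed upward and 11.6% downward, and 1.77% and 0.353% among genes with at least 5000 UMIs. In thinned cells Cd8a did pass it, at a log2 ratio of 0.96. The high shares over all genes come with only 372991 UMIs on the Trgv2 side.

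In the 44 cells with both Trgv2 and Itgae, Cd8a was at 960 CPM and Cd8b1 at 1807 CPM, a ratio of 0.531 (0.446 to 0.632). In the 36 cells with Trgv2 and no Itgae, Cd8a was at 464 CPM and Cd8b1 at 811 CPM, a ratio of 0.573 (0.425 to 0.766), while 2846 cells with neither had 512 and 1372 CPM. The median Cd8b1 count was 7.5 UMIs in cells with Trgv2 and Itgae, 3 in cells with Trgv2 alone and 6 in cells with neither. Cd8b1 was absent from 0 of 44 cells (which allows up to 8.04%), 5 of 36 (13.9%, 4.67 to 29.5) and 88 of 2846 (3.09%, 2.49 to 3.80). Among cells with Trgv2, those with Itgae thus had more of both chains and those without had fewer Cd8b1 UMIs. The groups also lay in different clusters of the clustering described below. Cluster 5 held 40 of the 44 cells and 1 of the 36, and cluster 0, which had the lowest Cd8b1 level of the clusters, held 2 of the 44 and 19 of the 36. Cluster 0 as a whole was at 1231 CPM of Cd8b1, above the 811 CPM of the 36 cells. Within it, 21 cells with Trgv2 held 66 Cd8b1 UMIs and 640 cells without held 4115. What part the clusters have in the difference between these groups of Trgv2 cells was not tested. Without Izumo1r or Nrn1, the ratio was 0.539 (0.452 to 0.641) in 42 cells with Itgae and Trgv2 and 0.541 in the 276 cells with Itgae alone, with no difference beyond the intervals. A receptor contig was found in 37 of the 44, 32 of the 36 and 2602 of the 2846 cells, and both CD3 transcripts were missing in 1 of the 36 and 35 of the 2846. With at least 2 Trgv2 UMIs the log2 difference was 0.69, and it was 1.02 in thinned cells, where only 37 cells had Trgv2.

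Cells with and without a receptor contig did not differ in the CD8 ratio beyond counting error. It was 0.398 (0.388 to 0.409) in cells with a contig and 0.430 (0.389 to 0.474) in cells without, a log2 difference of -0.11 (-0.26 to 0.04). Cd8a was at 557 and 582 CPM, Cd8b1 at 1400 and 1355 CPM and Cd3e at 910 and 955 CPM, with intervals that overlapped. Cd3d was at 1008 CPM (991 to 1025) in cells with a contig and 943 CPM (883 to 1005) in cells without, and the Cd3e to Cd3d ratio was 0.903 (0.881 to 0.925) and 1.01 (0.924 to 1.11), a log2 difference of -0.17 (-0.30 to -0.03). None of the 4 passed 1.5-fold, which 5.43% of 9038 genes passed upward and 9.42% downward (0% and 0.353% among genes with at least 5000 UMIs). Cells without a contig were shallow, with a median of 2255.5 UMIs against 4516.5, and Cd8a had a UMI in 64.9% of them against 84.9% of cells with a contig. Thinned to 1500 UMIs, Cd8a alone was seen in 7.48% of cells with a contig and 7.94% of cells without. By chain, the CD8 ratio was 0.397 (0.386 to 0.409) in 2411 cells with productive TRA and TRB contigs, 0.408 (0.380 to 0.438) in 491 with TRB only and 0.371 (0.298 to 0.459) in 62 with TRA only.

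Clustering placed the high ratios in clusters 4 and 5. The cells were clustered without the 4 genes and without receptor segments, and clusters are groups of cells of 1 library, referred to by number. The ratio was 0.633 (0.592 to 0.676) in cluster 4 (402 cells, led by Nrn1, Wnt10a, Cd200, Lag3 and Izumo1r) and 0.584 (0.531 to 0.642) in cluster 5 (161 cells, led by Cx3cr1, Lgals3, Csf1, Itga1 and Gzma). It lay between 0.331 and 0.390 in the other 5, lowest in cluster 3 (0.311 to 0.353) and next in cluster 0 (0.346, 0.325 to 0.367), cluster 2 (0.352, 0.329 to 0.376), cluster 6 (0.366, 0.330 to 0.405) and cluster 1 (0.390, 0.367 to 0.414). Neighbours in this order had overlapping intervals up to cluster 1, and clusters 5 and 4 overlapped each other but not the rest. Cd8a was at 1036 and 1102 CPM in clusters 4 and 5 and at 425 to 534 CPM elsewhere. Cd8b1 was highest in cluster 5 (1886 CPM) and lowest in cluster 0 (1231 CPM), which was led by Klre1, Klra6 and Klra7. Cd3e was highest in cluster 4 (1291 CPM), and Cd3d was highest in cluster 4 (1246 CPM) and lowest in cluster 5 (917 CPM).

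**Figure D4:**
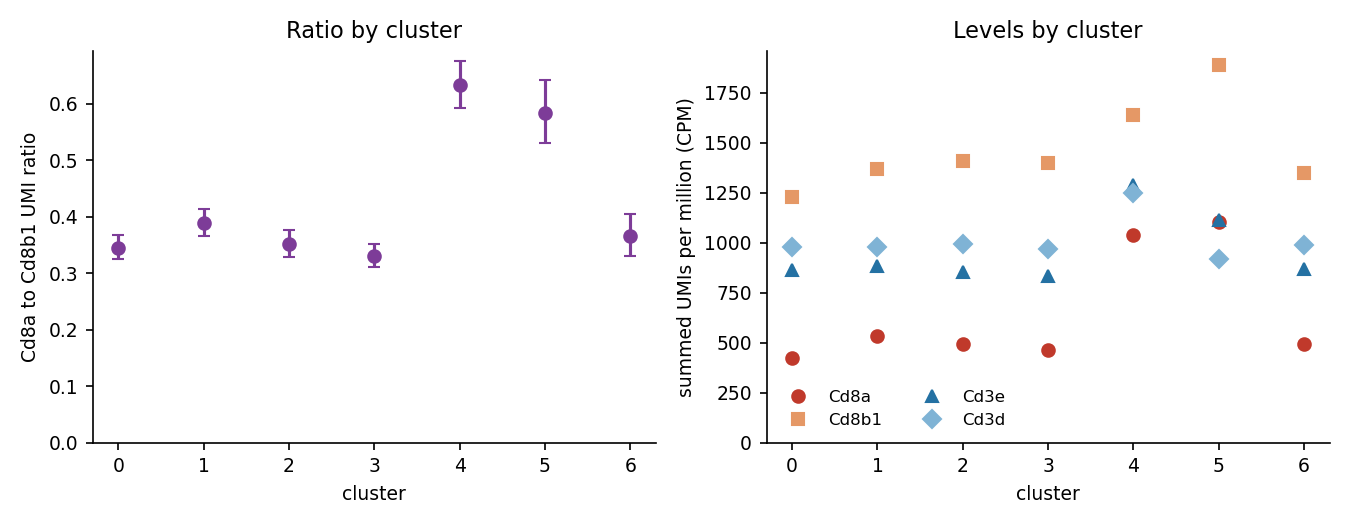
Cd8a to Cd8b1 UMI ratio with exact 95% counting intervals (left) and CPM of the 4 genes (right) in each of 7 clusters of lymph node cells. Clusters 4 and 5 have ratios of 0.633 and 0.584 and the other clusters 0.331 to 0.390.

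Itgae cells made up 34.3% of cluster 4 and 70.8% of cluster 5, and clusters 4 and 5 held 65.6% of cells with Itgae, 65.8% of those with Izumo1r or Nrn1 and 60.0% of those with Trgv2, against 10.8%, 13.5% and 16.2% of the cells without. Within these clusters, and outside them, the differences were smaller. Dividing the cells in this way was chosen after seeing the data. Cluster 5 was picked for the highest share of Itgae cells and cluster 4 for the highest share of Izumo1r or Nrn1 cells. Itgae, Izumo1r and Nrn1 were not left out of the clustering, so the shares of such cells there are partly fixed by the choice. What this does to the smaller differences was not tested. Within clusters 4 and 5 the ratio was 0.661 with Itgae and 0.572 without (log2 difference 0.21, 0.05 to 0.36), and in the other clusters 0.392 and 0.353 (0.15, -0.04 to 0.34). For Izumo1r or Nrn1 the log2 differences were 0.12 (-0.06 to 0.29) and 0.16 (-0.09 to 0.40). For Trgv2 the direction turned, at -0.14 (-0.39 to 0.12) within clusters 4 and 5 and 0.39 (-0.09 to 0.85) in the others. In single clusters with at least 20 cells on both sides, the Itgae difference was 0.29 (0.09 to 0.48) in cluster 4 and 0.23 (-0.09 to 0.56) in cluster 5. It was 0.16 (-0.15 to 0.46) in cluster 1, 0.05 (-0.39 to 0.48) in cluster 2 and -0.02 (-0.45 to 0.40) in cluster 0. The Izumo1r or Nrn1 difference was 0.18 (-0.02 to 0.37) in cluster 4 and -0.04 (-0.57 to 0.46) in cluster 0. The Trgv2 difference was -0.11 (-0.42 to 0.19) in cluster 5, where 41 cells had Trgv2, and 0.79 (0.17 to 1.39) in cluster 0, where 21 cells with Trgv2 had a ratio of 0.591 and 640 without had 0.342. For the contig the differences were -0.06 (-0.32 to 0.20) within clusters 4 and 5 and 0.00 (-0.18 to 0.19) in the other clusters.

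Depth moved with the ratio too. Over quintiles of cells from the lowest to the highest total UMIs it was 0.535 (0.497 to 0.576), 0.413, 0.378, 0.357 and 0.394 (0.376 to 0.413). Clusters 4 and 5 were shallow, with a median of 2975 UMIs against 4590 in the other clusters. Outside them the ratio over the same quintiles was 0.388 (0.346 to 0.435), 0.367, 0.350, 0.340 and 0.358 (0.339 to 0.377), and within them 0.701, 0.562, 0.629, 0.613 and 0.576, higher in every quintile. Within quintiles, cells with Itgae had the higher ratio in all 5, by a log2 difference of 0.38 to 0.87, as had cells with Izumo1r or Nrn1, by 0.33 to 0.64. Cells with Trgv2, 11 to 24 in each quintile, had it by 0.29 to 0.85. Of their intervals only that of quintile 3 (0.20 to 1.48) lay above 0. For the contig the quintiles gave -0.42 to 0.41, with no common direction.

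**Figure D5:**
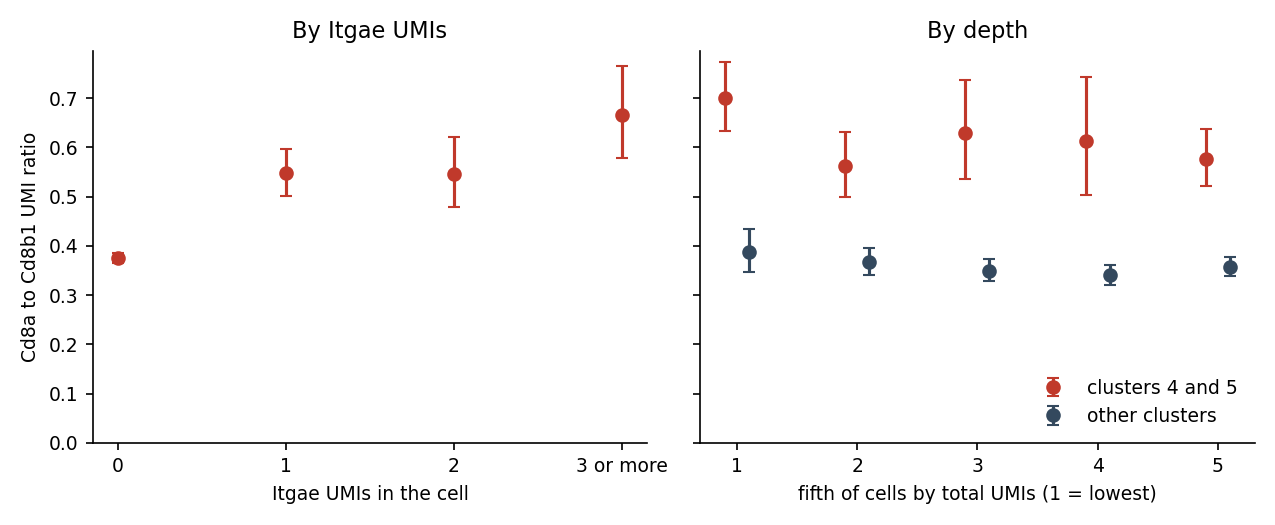
Cd8a to Cd8b1 UMI ratio by number of Itgae UMIs in the cell (left) and by quintile of cells by total UMIs (right), for clusters 4 and 5 (red) and the other clusters (dark), with exact 95% counting intervals. The ratio is 0.375 at 0 and 0.666 at 3 or more Itgae UMIs, with overlapping intervals at 1, 2 and 3 or more. Clusters 4 and 5 lie above the others in every quintile.

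Markers of other cell types moved with some divisions. Apart from leaving out cells with a Cd74 UMI, their part in the results was not tested. Listed markers not counted as measured below were absent from the gene table. The 7 measured of 10 B cell markers, Cd74 among them, summed to 314 CPM in cells with Itgae and 225 CPM in cells without, to 359 and 225 CPM for Izumo1r or Nrn1, to 196 and 235 CPM for Trgv2 and to 233 and 255 CPM for the contig. The 4 measured of 9 myeloid markers lay between 94.3 and 129 CPM in all 8 groups. The 3 measured of 5 CD4 T cell markers (Cd40lg, Zbtb7b and Tnfrsf4) were at 62.6 and 12.0 CPM for Itgae, 71.3 and 13.4 CPM for Izumo1r or Nrn1, 34.9 and 17.1 CPM for Trgv2 and 16.4 and 32.3 CPM for the contig. Cd4 and Foxp3 were not measured, and whether the values of the other 3 come from CD4 T cells was not tested. The 3 measured of 6 NK cell markers were Eomes, Gzma and Prf1, and Gzma was also among the leading genes of cluster 5. Ncr1, Klrb1c and Klri2 were not measured. The measured markers summed to 302 and 167 CPM for Itgae and 213 and 180 CPM for Izumo1r or Nrn1. For Trgv2 they summed to 614 and 171 CPM and for the contig to 175 and 280 CPM. Whether these values come from NK cells was not tested. Of 12 γδ T cell markers only Cd163l1 was measured, at 21.3 and 25.1 CPM for Itgae, 8.67 and 25.9 CPM for Izumo1r or Nrn1, 48.3 and 24.0 CPM for Trgv2 and 24.6 and 25.3 CPM for the contig. The 1 measured of 5 innate-like T cell markers, Il18r1, lay between 73.2 and 177 CPM, highest in cells with Trgv2, and the 1 of 4 keratinocyte markers, Krt10, was at no more than 14.4 CPM in any of the 8 groups.

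Other genes of the receptor complex and its signalling are given as counts past 1.5-fold, to be read against the shares of all genes past it. Those shares upward and downward were 15.5% and 3.25% with Itgae, 14.2% and 6.2% with Izumo1r or Nrn1, 18.2% and 11.6% with Trgv2 and 5.43% and 9.42% with a contig. The medians of all genes were 0.21, 0.15, 0.13 and -0.09. Of 6 measured genes of the complex, none was past 1.5-fold in either direction with Itgae, and the median log2 ratio was 0.22 against 0.21 over all genes. Cd3g, the γ chain gene beside Cd3d, was at 1062 and 733 CPM (0.53, 0.46 to 0.61), so Cd3g and Cd3e were higher with Itgae while Cd3d, at 0.02, was not. Fcer1g, a signalling adaptor that can replace CD3 ζ, was at 6.26 and 4.32 CPM (0.53, -0.60 to 1.52). Trbc1, a constant region of the β chain, was at 93.9 and 82.6 CPM (0.18, -0.07 to 0.43), and Cd247, the ζ chain gene, at 174 and 163 CPM (0.10, -0.09 to 0.28). With Izumo1r or Nrn1, 1 of 6 was past the threshold upward (Trbc1, 0.65) and 1 downward (Fcer1g, with 0 UMIs there and set at a floor of 3). With Trgv2, 1 of 6 was past it upward: Fcer1g, at 34.9 CPM (13 UMIs) and 3.74 CPM. With a contig, 0 were past it.

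Of 20 genes of receptor-proximal signalling, 3 were past 1.5-fold upward and 0 downward with Itgae (median 0.38), an upward share near the 15.5% of all genes. The highest were Trat1, an adaptor that stabilizes the receptor complex, at 76.3 and 8.72 CPM (3.13, 2.75 to 3.51), and Lcp2, the adaptor SLP-76 (0.79, 0.59 to 0.98). The lowest were Txk, a Tec family kinase, at 141 and 210 CPM (-0.58, -0.78 to -0.38), and the adaptor Skap1 (0.00, -0.12 to 0.11). Lck, the kinase that CD8 α binds, was picked with its value known and was at 715 and 653 CPM (0.13, 0.04 to 0.22). The upward and downward counts were 2 and 0 for Izumo1r or Nrn1, 2 and 0 for Trgv2 and 0 and 1 for the contig.

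Among 15 negative regulators 1 was past the threshold upward and 0 downward with Itgae (median 0.29): Dgkz, a diacylglycerol kinase (0.65, 0.38 to 0.91), followed by the adaptor Dok1 (0.54, -0.02 to 1.07). Lowest were Ptpn6, the phosphatase SHP-1 (-0.23, -0.40 to -0.06), and the phosphatase Ptpn2 (-0.07, -0.37 to 0.22). The counts were 4 and 0 with Izumo1r or Nrn1, 2 and 2 with Trgv2 and 0 and 0 with a contig. Of 16 measured T cell surface genes, 6 were past it upward, where 15.5% of all genes were, and 0 downward with Itgae (median 0.42). Cd226 at 121 and 51.0 CPM (1.24) and Cd96 (1.02, 0.82 to 1.21), receptors for nectin-like ligands, were highest, and Cd27 (0.10, -0.06 to 0.26) and Cd5 (0.25, 0.07 to 0.42) lowest. The counts were 4 and 0 with Izumo1r or Nrn1 (14.2% of all genes upward), 4 and 0 with Trgv2 (18.2%) and 0 and 1 with a contig.

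Of 19 regulators linked to the Cd8 locus with enough UMIs, 2 were past the threshold upward and 0 downward with Itgae (median 0.35): the factor Runx1 at 47.6 and 24.4 CPM (0.96, 0.58 to 1.33) and Tox (0.89, 0.52 to 1.24), which is needed for the CD4 T cell lineage. Patz1 (-0.34, -1.04 to 0.29), a repressor that binds a Cd8 enhancer, and the chromatin organizer Satb1 at 156 and 193 CPM (-0.31, -0.50 to -0.12) were lowest. The counts were 4 and 0 with Izumo1r or Nrn1, 3 and 2 with Trgv2 and 0 and 0 with a contig. Among 8 measured class I genes, the ligands of CD8, none was past it in any division. With Itgae the median was 0.47, with H2-K1 (0.56, 0.52 to 0.61) and H2-T23 (0.53, 0.35 to 0.71) highest and B2m (0.26, 0.21 to 0.31) and H2-T22 (0.26, 0.11 to 0.41) lowest. No such list is called particular by these counts.

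Over the 7 clusters, 3084 genes with at least 500 UMIs were compared with each member by Pearson r of log2(CPM + 1). Most like Cd8a were Tm2d1, Spint2 and AI467606 (0.99 each), most like Cd8b1 were Pld3, Fxyd5 and Mob1a (0.98, 0.98 and 0.97), most like Cd3e were Saraf, Itm2c and Dnajc9 (0.99 each), and most like Cd3d were Ciao2a, Sharpin and Limd2 (0.99, 0.98 and 0.98). Among the members, r was 0.94 for Cd8a with Cd8b1, 0.94 for Cd8a with Cd3e and 0.38 for Cd8a with Cd3d. The clusters share 1 library and differ in depth, and 7 points set against 3084 genes give high values readily, so these are descriptions.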

How the data were processed

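Single-cell RNA and T cell receptor libraries were measured from sorted lymph node and skin T cells, and only the lymph node RNA library entered the comparisons. The deposited gene table gives UMI counts, all whole numbers, for genes in rows and cells in columns, and does not separate the lanes. Bowtie, RSEM and mm10 appear in the submitters' processing notes, without version or role. The deposited contig tables give UMI counts per assembled contig, and their 2 columns of reads were not used. The gene table had already been reduced, since no cell passed a mitochondrial share of 4.99% and no gene had UMIs in fewer than 14 cells. That leaves out cells with a higher mitochondrial share and genes seen in few cells before any comparison. Shallow cells remained, down to 461 UMIs. No doublet caller was run. Barcodes with 2 or more TRB contigs were left out as an alternative.

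Barcodes of the gene table were matched to the deposited lymph node contig table, which had been filtered. A cell without a contig is one with no entry there, and whether its receptor had been assembled cannot be told. CPM is the UMIs of a gene over the cells of one side, per 1000000 UMIs of that side. The ratio of Cd8a to Cd8b1 carries the exact binomial interval, the difference of ratios Fisher's exact conditional interval, and log2 ratios of levels, cells with over cells without, the exact conditional binomial interval, all at 95% and for counting error only. A gene with 0 UMIs on a side was set at a floor of 3 counts. Genes with at least 50 UMIs over both sides were compared with a threshold of 1.5-fold, with no test. The marker that defined a division was left out of its background. Cells were thinned to 1500 UMIs without replacement, which left out 176 cells. The 2000 most variable genes, 30 components, 15 neighbours and a resolution of 1.0 were used for Leiden clustering in scanpy 1.11.5 with igraph 0.11.9, and scipy 1.17.1 gave the intervals. Positions are from the GENCODE annotation of mm10. The estimates and intervals of levels and ratios were checked on simulated summed counts with known fold changes. Those counts held counting error only, with no spread between cells. The criterion for interval coverage was changed after a first run. Thinning, clustering and shares of cells were not checked in this way.

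The members, lists and divisions were chosen with earlier results of these data known. Other named genes are, from each list, the 2 highest and 2 lowest log2 ratios with Itgae, and the 3 genes most like each member over the clusters. Alternatives were a marker minimum of 2 UMIs, thinning, equal weight per cell, other contig definitions and subsets of cells. The divisions within clusters and quintiles of depth, the subsets without Cd74 cells or barcodes shared with skin, the minimum of 5000 UMIs and the division of Trgv2 cells by Itgae were chosen after seeing the data.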

Additional observations from a re-analysis of the deposited data

How the results depend on the processing

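The Cd8a to Cd8b1 log2 difference was above 0 under all 12 alternatives summarised for Itgae and for Izumo1r or Nrn1, but not within cluster 0 alone (-0.02 and -0.04). For the receptor contig 13 alternatives gave -0.23 to 0.00, all inside the interval of the reported value. Requiring a productive contig left the division of cells unchanged (-0.11), and a contig of at least 2 UMIs gave nearly the same value. Neither is a separate check. For Itgae it lay outside the interval of the reported value at 0.79 after thinning, 0.21 within clusters 4 and 5 and 0.15 in the other clusters. For Izumo1r or Nrn1 it was 0.88 with at least 2 UMIs, 0.34 without cells with a Cd74 UMI, 0.12 within clusters 4 and 5 and 0.16 in the others. For Trgv2 it was 0.69 with at least 2 UMIs and 1.02 after thinning, and turned to -0.14 within clusters 4 and 5. With median-of-ratios scaling the Cd8b1 level with Izumo1r or Nrn1 turned to -0.079, and the Cd8a level there fell short of 1.5-fold (0.48). Thinned, Cd3e with Izumo1r or Nrn1 (0.68) and Cd8a with Trgv2 (0.96) passed it, as did Cd3e with at least 2 UMIs of Izumo1r or Nrn1 (0.60). The cause of these moves was not tested. Thinning, which by construction leaves fewer UMIs per cell, gave higher shares of cells with Cd8a and no Cd8b1 in most groups. They were 10% with Itgae and 7.34% without, and 13.1% with Izumo1r or Nrn1 and 7.28% without. They were 7.57% without Trgv2, and 7.48% with a contig and 7.94% without. In cells with Trgv2 the share was 2.5% before thinning and 2.70% (0.07 to 14.2) after, from 1 of 37 cells. No paired analysis was possible because the lanes of 1 library are pooled in the gene table, and there is no replicate. Depth limits the Trgv2 division most, with 278 Cd8a UMIs in cells with Trgv2.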
